A study of Homo sapiens with 4 samples.

Results

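The 10 genes described here encode the tubulin isotypes of the human glioblastoma cell line U87-MG: the alpha tubulins TUBA1A, TUBA1B, TUBA1C and TUBA4A and the beta tubulins TUBB, TUBB2A, TUBB2B, TUBB3, TUBB4B and TUBB6. They were taken by gene symbol from tables of 23444 gene entries, and all 10 had counts and were among the 15293 genes tested. RNA was sequenced in 4 libraries, 2 of cells with a hairpin against MAGED2 (shMAGED2) and 2 of cells with a negative control hairpin (shCON). The cells came from the American Type Culture Collection, were grown in MEM medium and carry no other stated change. The series text calls the knockdown stable, whereas the treatment protocol names hairpins against ZDHHC15 and a scrambled hairpin, given by transient transfection with harvest after 36 h, and which applies was not resolved. No source used here gives the number of hairpins or clones. Whether replicates were grown as separate cultures is not stated, and the p-values reflect the scatter between these 4 samples alone, possibly a technical one.

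Microtubules are built from dimers of 1 alpha and 1 beta tubulin, and they form the mitotic spindle, the tracks of intracellular transport and the core of cilia. The isotypes are encoded by separate genes and differ most in their acidic C-terminal tails, where modifying enzymes add or remove glutamate and tyrosine. Cells also adjust tubulin mRNA to the pool of free dimers: TTC5 binds the start of the nascent tubulin chain at the ribosome and, through SCAPER, brings the CCR4-NOT deadenylase to the mRNA.

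The start of the coding sequence is shown first because it encodes the start of the nascent chain, which this control reads as protein. The first 4 codons are in capitals (the first 24 coding bases, 5′ to 3′, GENCODE 29 transcripts on hg38). TUBA1A, TUBA1B and TUBA1C shared their 24 bases, so each alpha form and each beta form is given once.
TUBA1A, TUBA1B and TUBA1C: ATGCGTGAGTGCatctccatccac
TUBA4A: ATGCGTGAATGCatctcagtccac
TUBB: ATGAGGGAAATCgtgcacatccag
TUBB2A: ATGCGCGAGATCgtgcacatccag
TUBB2B: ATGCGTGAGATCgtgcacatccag
TUBB3 and TUBB6: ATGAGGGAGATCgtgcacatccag
TUBB4B: ATGAGGGAAATCgtgcacttgcag

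The last 60 coding bases, which end with the stop codon in capitals, encode the tails and are shown for TUBA4A and the beta genes. The tail of TUBA4A is known to lack the terminal tyrosine that the other alpha genes encode. The tail of TUBB3 holds the site that widely used antibodies against neuronal beta tubulin recognise.
TUBA4A: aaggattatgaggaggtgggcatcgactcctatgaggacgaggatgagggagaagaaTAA
TUBB: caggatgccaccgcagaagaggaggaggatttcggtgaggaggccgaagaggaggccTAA
TUBB2A: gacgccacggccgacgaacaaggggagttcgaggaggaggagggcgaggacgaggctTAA
TUBB2B: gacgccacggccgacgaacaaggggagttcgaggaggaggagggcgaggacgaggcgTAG
TUBB3: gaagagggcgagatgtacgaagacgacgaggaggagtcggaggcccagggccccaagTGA
TUBB4B: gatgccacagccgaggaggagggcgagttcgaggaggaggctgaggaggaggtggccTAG
TUBB6: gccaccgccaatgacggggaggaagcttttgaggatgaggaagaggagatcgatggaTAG

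Over the whole coding sequence TUBA1A and TUBA1B were 97.2% identical, TUBA1B and TUBA1C 96.8% with a longest identical run of 326 bases, and TUBB2A and TUBB2B 98.1% with a run of 725 bases. Reads from such runs cannot be assigned to 1 gene by sequence. TUBA4A was 84.4% to 85.7% identical to the other alpha genes, the remaining beta pairs were 80.9% to 87.7% identical, and alpha against beta gave 52.9% to 55.6%. TUBB6 shared no 100-base window with another annotated transcript and TUBB4B shared 4.5% of its windows, the lowest shares. Windows were compared on both strands, so a gene overlapping at the same place adds to the share without making reads match elsewhere. The share was 20.4% for TUBB, 26.6% for TUBA1A, 27.4% for TUBA4A, 29.6% for TUBA1C, 46.2% for TUBB2B, 56.4% for TUBB2A, 71.1% for TUBA1B and 89.0% for TUBB3. Genes that overlap the isotype gave many of these windows. AC092143.1 gave 1487 for TUBB3, AC011603.2 gave 999 for TUBA1B, AC125611.3 gave 539 for TUBA1C, STK16 gave 528 for TUBA4A and AL662797.1 gave 440 for TUBB. The shares are therefore no ranking of the isotypes by multiply matching reads.

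**Figure D1:**
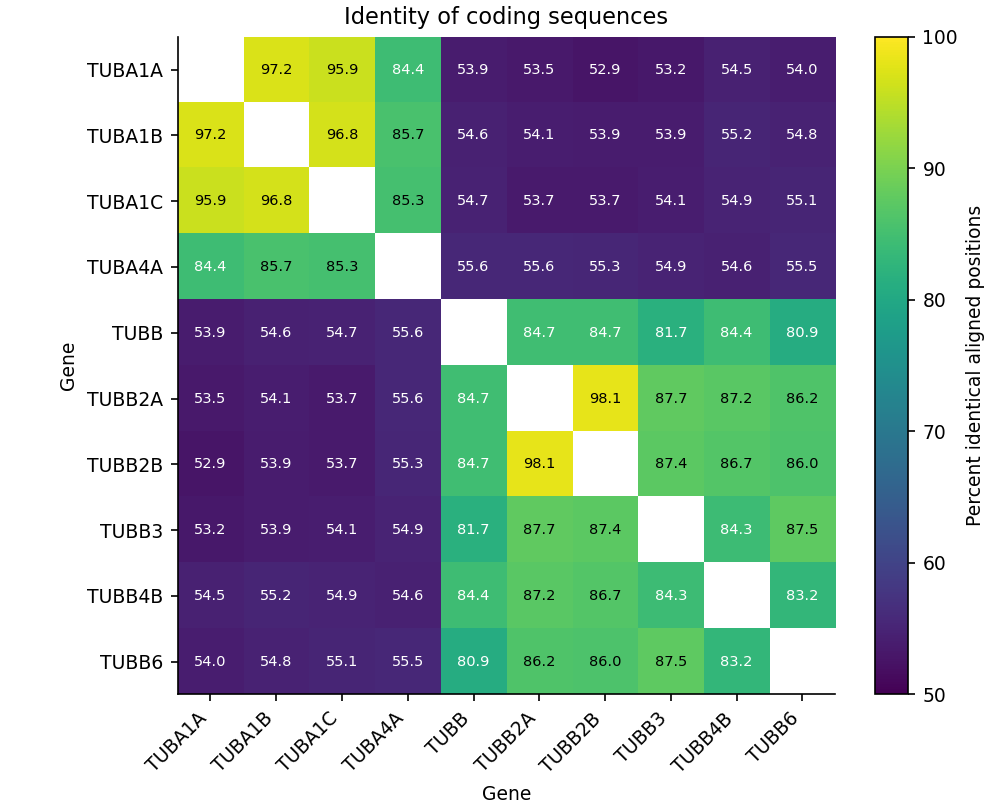
Percent of aligned positions that are identical between the coding sequences of each pair of the 10 genes (colour scale from 50 to 100%; genes on both axes; the diagonal is blank). TUBA1A, TUBA1B and TUBA1C form 1 block at 95.9% to 97.2%, TUBB2A and TUBB2B stand at 98.1%, and no other pair exceeds 87.7%.

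MAGED2, the labelled target, had 6090 and 5225 counts in shCON replicates 1 and 2 and 526 and 795 in shMAGED2 replicates 1 and 2, so that it fell by 3.16 in log2 units (SE 0.13; edgeR quasi-likelihood, Benjamini-Hochberg adjusted p = 0.000654), while ZDHHC15 had 0 counts in every library. Library totals were 28673774 to 36234336 counts. The library shMAGED2 replicate 1 stood apart with 10.1% of its counts on mitochondrially encoded genes, against 3.9% to 4.9% in the others. Of the glial markers, VIM was high (7577 to 8802 CPM, counts scaled to the TMM-adjusted library total) and GFAP low (0.951 to 3.03 CPM), while SOX2 had at most 4 counts and AQP4 and ALDH1L1 had 0 in all 4 libraries. A count of 0 allows up to 0.0828 to 0.105 CPM (3 counts over the library total without TMM adjustment, counting error only).

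Tubulin mRNA was higher in shMAGED2 for 9 of the 10 isotypes, all 4 alpha genes and 5 of the 6 beta genes. Their increases ran from 1.8-fold for TUBB to 3.21-fold for TUBA1B, and the median log2 change over the 10 genes was 1.14, against 0.0 over all genes tested. The test was edgeR's quasi-likelihood test with Benjamini-Hochberg adjustment over all 15293 genes and a threshold of 0.05, at which 12.3% of all genes were called higher and 11.6% lower. By edgeR 0 of the 10 were called lower, with 0 at an unadjusted p under 0.05 and 0 by DESeq2, and TUBB2B was the 1 gene that missed the threshold. Both shMAGED2 libraries lay above both shCON libraries for 9 of the 10, against 33.0% of all genes tested. The summed counts of the 10 genes made up 0.27% and 0.264% of the shCON libraries and 0.635% and 0.569% of the shMAGED2 libraries. In bulk RNA, a shift in the share of cells that hold much tubulin mRNA and a shift in mRNA per cell cannot be told apart.

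**Figure D2:**
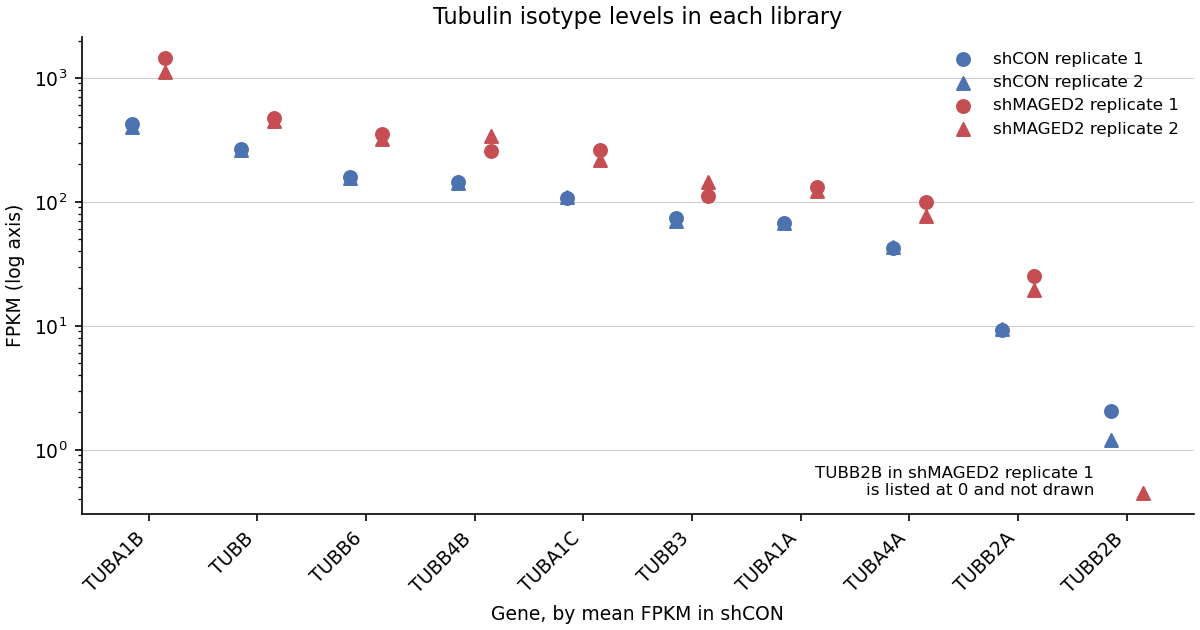
Deposited FPKM of each isotype (log axis) in shCON (blue) and shMAGED2 (red), 1 point per library, circles for replicate 1 and triangles for replicate 2; genes are ordered by their mean in shCON. Red points lie above blue points for 9 genes, and TUBB2B, with 0 and 0.45 FPKM in shMAGED2, lies below.

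FPKM values, fragments relative to transcript length and to the library total, are per length and allow levels of different genes to be compared. By mean FPKM both groups had the same order: TUBA1B, TUBB, TUBB6, TUBB4B, TUBA1C, TUBB3, TUBA1A, TUBA4A, TUBB2A and TUBB2B. Within shCON each gene's pair of values lay clear of its neighbours' in that order. Within shMAGED2 TUBB6 and TUBB4B overlapped, as did TUBB4B and TUBA1C, and TUBB3 and TUBA1A.

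Among the alpha genes, TUBA1B had both the highest level and the highest fold. TUBA1B (ENSG00000123416; chromosome 12, 49127782 to 49131397, minus strand, 4 exons in the transcript used, hg38 and GENCODE 29 here and below) is the ubiquitous alpha isotype of dividing cells. It was at 427.4 and 399.3 FPKM in shCON replicates 1 and 2 and at 1432.7 and 1106.9 FPKM in shMAGED2 replicates 1 and 2. Both shMAGED2 values lay far above the shCON pair, and they also lay further from each other than the shCON values did. On the CPM scale the means were 684.9 ± 32.8 and 2200.8 ± 503.3 (SD, n = 2), and the log2 change of 1.68 (SE 0.17) had an edgeR quasi-likelihood Benjamini-Hochberg adjusted p of 0.00219. Without shMAGED2 replicate 1 the log2 change was 1.43, and without shMAGED2 replicate 2 it was 1.90. An antisense gene, AC011603.2, overlaps TUBA1B. Of the 1086 shared windows of TUBA1B, 999 match AC011603.2, 284 match TUBA1C and 282 match TUBA1A, and a window can match several genes. No gene entry carries the symbol AC011603.2, and without a stated strand setting the reads of TUBA1B and AC011603.2 cannot be told apart.

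TUBA1C (ENSG00000167553; chromosome 12, 49188736 to 49274603, plus strand) lies beside TUBA1A in the same cluster and is expressed in many tissues. Its FPKM was 108.2 and 108.5 in the shCON libraries and 263.5 and 218.0 in shMAGED2 replicates 1 and 2, with no overlap between the groups. The CPM means of 329.6 ± 2.44 and 765.5 ± 138.6 (SD, n = 2) gave a log2 change of 1.22 (SE 0.14; edgeR quasi-likelihood, Benjamini-Hochberg adjusted p = 0.00329). TUBA1A (ENSG00000167552; chromosome 12, 49184796 to 49189324, minus strand) is the main alpha isotype of young neurons, and its mutations cause lissencephaly. It was measured at 67.8 and 67.3 FPKM in shCON and at 131.2 and 121.4 in shMAGED2, so that the knockdown pair was close together and clear of the control pair. In CPM it went from 129.8 ± 0.384 to 243.6 ± 10.3 (SD, n = 2), a log2 change of 0.91 (SE 0.09; edgeR quasi-likelihood, Benjamini-Hochberg adjusted p = 0.00219). TUBA1A and TUBA1C overlap on opposite strands. The antisense gene AC125611.3 also overlaps TUBA1C, and no gene entry carries that symbol. Without a stated strand setting the reads of TUBA1C and AC125611.3 cannot be told apart.

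TUBA4A (ENSG00000127824; chromosome 2, 219249711 to 219278170, minus strand) is known from platelets, muscle and motor neurons. The shCON libraries held 42.2 and 43.4 FPKM and the shMAGED2 libraries 99.5 and 77.2, again with no overlap and with replicate 1 the higher of the knockdown pair. Mean CPM was 89.7 ± 0.0431 against 198.8 ± 45.5 (SD, n = 2), and the log2 change was 1.15 (SE 0.16; edgeR quasi-likelihood, Benjamini-Hochberg adjusted p = 0.0068). That change was 0.89 without shMAGED2 replicate 1 and 1.36 without shMAGED2 replicate 2. The kinase gene STK16 overlaps TUBA4A on the opposite strand and shares 528 windows with it. STK16 had a log2 change of −0.23 (SE 0.13; edgeR quasi-likelihood, Benjamini-Hochberg adjusted p = 0.264) and did not pass. The part of STK16 reads in the TUBA4A counts was not tested.

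TUBB was the beta isotype with the highest level and the lowest fold among the 9 that rose. An antisense gene, AL662797.1, overlaps TUBB, and no gene entry carries that symbol. Without a stated strand setting the reads of TUBB and AL662797.1 cannot be told apart. TUBB (ENSG00000196230; chromosome 6, 30720201 to 30725426, plus strand) is the common class I beta tubulin. It stood at 267.9 and 263.8 FPKM in shCON replicates 1 and 2 and at 470.0 and 449.9 FPKM in shMAGED2 replicates 1 and 2, each pair close and the groups apart. CPM means were 722.9 ± 7.79 and 1303.3 ± 103.2 (SD, n = 2), with a log2 change of 0.85 (SE 0.10; edgeR quasi-likelihood, Benjamini-Hochberg adjusted p = 0.0034). The log2 change was 0.77 to 0.93 in the other fits, but the call was lost in 2 of them: without shCON replicate 1 the log2 change was 0.86 with an edgeR quasi-likelihood Benjamini-Hochberg adjusted p of 0.0619, and without shCON replicate 2 it was 0.84 with 0.0574.

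TUBB6 (ENSG00000176014; chromosome 18, 12307669 to 12344320, plus strand) is a widely expressed class V isotype known to weaken microtubule arrays when overexpressed in some cells. It reached 158.2 and 156.2 FPKM in shCON against 354.9 and 320.0 in shMAGED2, with no overlap between the groups. Its CPM went from 275.0 ± 0.29 to 658.6 ± 76.5 (SD, n = 2), the change with the smallest p of the 10 genes (log2 1.26, SE 0.11; edgeR quasi-likelihood, Benjamini-Hochberg adjusted p = 0.00153). TUBB4B (ENSG00000188229; chromosome 9, 137241213 to 137243707, plus strand) is a class IV isotype found in most tissues and in cilia. TUBB4B was at 143.7 and 140.5 FPKM in shCON and at 258.9 and 341.4 in shMAGED2 replicates 1 and 2, so here replicate 2 was the higher of the knockdown pair. Mean CPM was 236.9 ± 3.76 against 518.7 ± 76.1 (SD, n = 2), a log2 change of 1.13 (SE 0.12; edgeR quasi-likelihood, Benjamini-Hochberg adjusted p = 0.00281). TUBB6 and TUBB4B are the genes with the fewest shared windows, and their changes lay within the range of the other 7 that rose. The part of multiply matching reads in these changes was not tested.

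TUBB3 (ENSG00000258947; chromosome 16, 89921392 to 89938761, plus strand) is the class III isotype, used as a neuronal marker and also found in glioblastoma and other tumours. It was at 73.5 and 70.0 FPKM in shCON and at 110.5 and 143.2 in shMAGED2 replicates 1 and 2, with the groups apart and replicate 2 the higher, as for TUBB4B. In CPM this was 131.8 ± 6.43 against 242.7 ± 27.0 (SD, n = 2), and the log2 change was 0.88 (SE 0.11; edgeR quasi-likelihood, Benjamini-Hochberg adjusted p = 0.0049). TUBB3 was read against 8 other neuronal markers. Of these 4 were tested, 0 rose (0 as well at an unadjusted p under 0.05, and 0 by DESeq2) and 1 fell: MAP2, a dendritic microtubule-binding protein, had a log2 change of −1.96 (SE 0.29; edgeR quasi-likelihood, Benjamini-Hochberg adjusted p = 0.00715). Among all genes tested, edgeR called 12.3% higher and 11.6% lower. The synaptic genes SYT1 (log2 difference −0.45, Benjamini-Hochberg adjusted p = 0.0889, edgeR) and SNAP25 (0.44, 0.192) did not pass with all 4 libraries. Without shMAGED2 replicate 1 SYT1 passed as lower (−0.60, 0.00158), and without shMAGED2 replicate 2 SNAP25 passed as higher (0.53, 0.037, edgeR). STMN2 and ELAVL4 had 0 counts in all 4 libraries, DCX had 6 counts in 1 library and 0 in the others, and the summed level of the 8 genes was 78.4 to 82.9 CPM in shCON and 41.5 to 53.9 CPM in shMAGED2. Without MAP2 the other 7 summed to 38.3 to 39.9 CPM and 34.0 to 40.0 CPM, and the groups overlapped.

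Most of TUBB3, 1487 of its 1670 windows, is shared with AC092143.1, an annotated read-through of MC1R and TUBB3 on the same strand. AC092143.1 was listed with 0 counts in all 4 libraries. MC1R itself, the melanocortin receptor upstream, had 644 and 520 counts in the shCON libraries, 371 and 557 in the shMAGED2 libraries, and a log2 change of −0.38 (edgeR quasi-likelihood, Benjamini-Hochberg adjusted p = 0.145).

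TUBB2A and TUBB2B, neighbours on chromosome 6 with nearly the same coding sequence, differed in where the shMAGED2 libraries lay: above shCON for TUBB2A and below it for TUBB2B. TUBB2A (ENSG00000137267; 3153669 to 3157526, minus strand) is a class II isotype of brain and other tissues. It received 522 and 450 counts in shCON and 1311 and 1162 in shMAGED2, or 9.19, 9.43, 25.4 and 19.4 FPKM in the same order, the lowest level of the 9 genes that rose. The change was from 15.2 ± 0.271 to 38.1 ± 9.1 CPM (SD, n = 2; log2 1.33, SE 0.19; edgeR quasi-likelihood, Benjamini-Hochberg adjusted p = 0.00701), and it was 1.06 without shMAGED2 replicate 1 and 1.55 without shMAGED2 replicate 2. TUBB2B (ENSG00000137285; 3224261 to 3231730, minus strand) is a class II isotype of developing neurons whose mutations cause polymicrogyria. It had 148 and 72 counts in shCON replicates 1 and 2 but 0 and 35 in shMAGED2 replicates 1 and 2.

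TUBB2B had mean CPM values of 3.35 ± 1.26 in shCON and 0.477 ± 0.674 in shMAGED2 (SD, n = 2), and the fitted log2 change of −2.75 (SE 1.13) did not pass (edgeR quasi-likelihood, Benjamini-Hochberg adjusted p = 0.134). Without shMAGED2 replicate 1 it was −1.81 and passed (Benjamini-Hochberg adjusted p = 0.00538, edgeR). Without shMAGED2 replicate 2, which leaves only the library at 0, it passed as well (1.26e-07), with a fitted size that depends on the prior count. Of the summed FPKM of TUBB2A and TUBB2B, TUBB2B made up 18.2% and 11.2% in shCON and 0% and 2.27% in shMAGED2. The summed FPKM was 11.2 and 10.6 in shCON and 25.4 and 19.8 in shMAGED2, so the pair as a unit was higher in both knockdown libraries. A difference in how multiply matching reads were divided between these 2 genes was not tested.

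**Figure D3:**
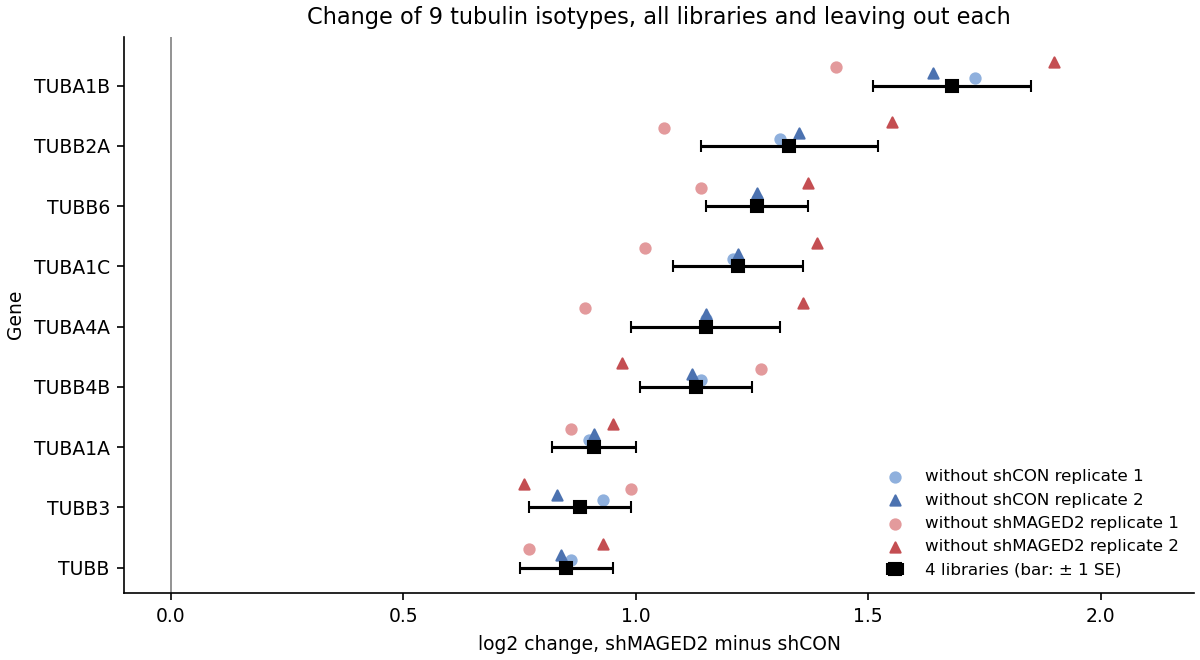
Log2 change of the 9 isotypes that rose (shMAGED2 minus shCON, horizontal axis). Black squares give the fit of all 4 libraries with 1 SE to each side, and coloured points the fit without the library named in the key; all lie between 0.76 and 1.90. Leaving out shMAGED2 replicate 1 lowers 7 genes and raises TUBB3 and TUBB4B.

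The spread within shMAGED2 had 2 directions. In CPM, 7 of the 9 isotypes that rose were higher in shMAGED2 replicate 1, the library with the high mitochondrial share, and 2, TUBB3 and TUBB4B, were higher in replicate 2. With shMAGED2 replicate 1 left out, the log2 changes of the 9 isotypes that rose ran from 0.77 for TUBB to 1.43 for TUBA1B. That fit takes its spread from the shCON pair alone. With mitochondrially encoded genes removed, 9 isotypes were called higher, as were 1925 genes in all. The part of the mitochondrial share in the order of the 2 libraries was not tested.

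Alpha and beta chains pair 1 to 1 in the dimer, so the summed levels of the 2 classes were set side by side. Summed alpha FPKM was 645.5 and 618.5 in shCON and 1926.9 and 1523.4 in shMAGED2, and summed beta FPKM was 654.6 and 641.1 against 1219.7 and 1274.4. The ratio of alpha to beta was therefore 0.986 and 0.965 in shCON and 1.58 and 1.2 in shMAGED2. Both shMAGED2 ratios lay above both shCON ratios, but the pair differed by more than the distance from the nearer of them to the controls. An exact two-sided permutation test of 2 against 2 libraries cannot go below p = 0.333, which this ratio gave.

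TUBA1B made up more of the alpha sum in both shMAGED2 libraries. It held 66.2% and 64.6% of summed alpha FPKM in shCON and 74.4% and 72.7% in shMAGED2. TUBA1C held 16.8% and 17.5% against 13.7% and 14.3%, TUBA1A 10.5% and 10.9% against 6.81% and 7.97%, and TUBA4A 6.53% and 7.01% against 5.16% and 5.07%, so these 3 genes had lower shares although each rose. The ratio of TUBA1B to TUBA1A went from 6.31 and 5.93 to 10.9 and 9.12. None of these shares overlapped between the groups, and each gave the smallest exact permutation p that the design allows, 0.333.

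In the beta class the shares of TUBB, TUBB6, TUBB2A and TUBB2B lay apart between the groups, each at the smallest exact permutation p of 0.333. TUBB held 40.9% and 41.1% of summed beta FPKM in shCON and 38.5% and 35.3% in shMAGED2, and TUBB6 24.2% and 24.4% against 29.1% and 25.1%. The ratio of TUBB6 to TUBB was 0.591 and 0.592 in shCON and 0.755 and 0.711 in shMAGED2. TUBB4B overlapped between the groups, with 22.0% and 21.9% against 21.2% and 26.8%, and so did TUBB3, with 11.2% and 10.9% against 9.06% and 11.2%. TUBB2A held 1.4% and 1.47% in shCON and 2.09% and 1.52% in shMAGED2, and TUBB2B 0.313% and 0.185% against 0% and 0.0354%.

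**Figure D4:**
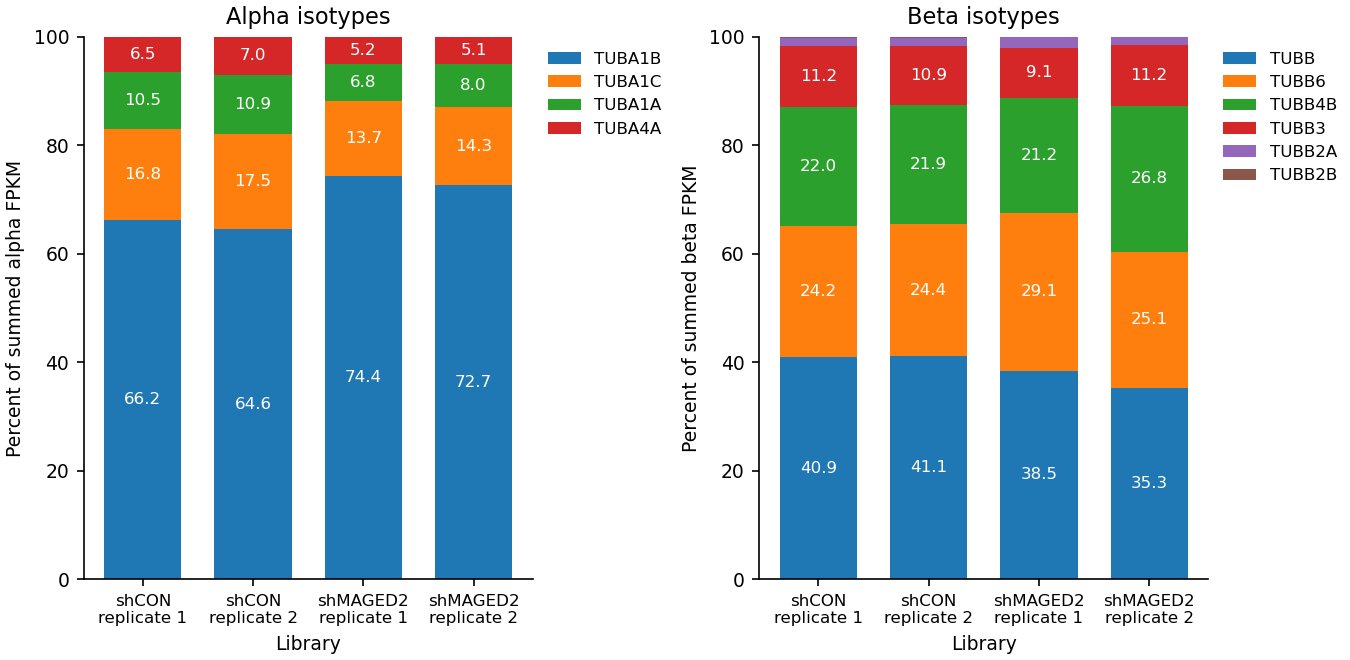
Share of each isotype in the summed FPKM of the alpha genes (left) and of the beta genes (right), in percent, 1 bar per library. TUBA1B takes 64.6% to 66.2% of the alpha sum in shCON and 72.7% to 74.4% in shMAGED2, and TUBB takes 40.9% to 41.1% and 35.3% to 38.5% of the beta sum.

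Promoter sequences are shown for TUBA1B, the gene with the highest fold, for TUBB4B, and for the unlike pair TUBB2A and TUBB2B. They are RefSeq promoters on GRCh38.p14, 5′ to 3′ on the gene's strand, cut before any annotated exon, at chr12:49131398-49131645 (minus strand), chr9:137241037-137241212 (plus), chr6:3157545-3157794 (minus) and chr6:3227736-3227903 (minus). Capitals mark CCAAT on either strand, the box bound by the factor NF-Y.
TUBA1B: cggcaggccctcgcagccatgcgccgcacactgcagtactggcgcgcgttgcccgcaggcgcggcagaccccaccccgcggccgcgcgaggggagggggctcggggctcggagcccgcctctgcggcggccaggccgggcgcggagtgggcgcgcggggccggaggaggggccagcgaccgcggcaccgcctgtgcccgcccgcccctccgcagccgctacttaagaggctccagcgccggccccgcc
TUBB4B: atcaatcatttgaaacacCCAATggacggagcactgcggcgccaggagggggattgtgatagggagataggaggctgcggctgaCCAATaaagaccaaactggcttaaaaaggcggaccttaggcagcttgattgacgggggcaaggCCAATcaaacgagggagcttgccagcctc
TUBB2A: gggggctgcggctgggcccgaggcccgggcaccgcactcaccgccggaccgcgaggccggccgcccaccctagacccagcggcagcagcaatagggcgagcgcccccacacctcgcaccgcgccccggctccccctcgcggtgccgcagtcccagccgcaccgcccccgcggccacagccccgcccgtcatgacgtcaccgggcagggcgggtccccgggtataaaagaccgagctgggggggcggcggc
TUBB2B: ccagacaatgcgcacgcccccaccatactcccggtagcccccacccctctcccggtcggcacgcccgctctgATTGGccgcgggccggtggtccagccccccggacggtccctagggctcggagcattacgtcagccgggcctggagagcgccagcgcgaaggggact

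All 10 members had a RefSeq promoter entry, 15 in all. In the 250 bases before the start, CCAAT was found on either strand in 9 of these 15 (60%) and in 32% of all 35116 entries, which include several starts of some genes. TUBA1C supplied 3 of the 9, from entries that partly overlap and share a box, so the 15 are not independent. TUBB4B held 3 copies, at 232, 166 and 103 bases before its RefSeq start, and TUBA1B and TUBA4A, both of which rose, held none. TUBB2B held 1 copy at 178 bases and TUBB2A none. For TUBB4B and TUBB2B the RefSeq start lies downstream of the printed stretch. GGGCGG, the GC box, was in 9 of the 15 (60%) against 42.6% of all. TATAAA was in 1 of the 15, at 30 bases before the start of TUBB2A, against 10.7% of all. Of the cell cycle elements known as CHR, TTTGAA was in 3 of the 15 (20.0%, against 13.3% of all) and TTCGAA in 1 (6.7%, against 1.2%). TUBA1C supplied 2 of the 3 entries with TTTGAA. These are matches of letters, and each motif was searched on both strands without regard to overlap with another.

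Over all genes, 567 and 658 were called higher without shCON replicates 1 and 2, and 3369 and 3725 without shMAGED2 replicates 1 and 2, with 533, 614, 3196 and 3722 lower, and counts within the related gene lists moved with the library left out too.

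The remaining alpha and beta tubulin genes were barely expressed. Of 8 such genes, 3 were tested and 0 passed in either direction by edgeR, by DESeq2 or at an unadjusted p under 0.05, with a median log2 change of −0.67. Over all genes tested edgeR called 12.3% higher and 11.6% lower. TUBA8 had 56 and 69 counts in shCON and 0 and 48 in shMAGED2 (log2 change −1.55, Benjamini-Hochberg adjusted p = 0.404, edgeR), TUBA3D had −0.67 (0.449), and TUBB1, the platelet form, 0.21 (0.797). Without shMAGED2 replicate 2, which leaves the library with 0 counts of it, TUBA8 passed as lower (7.05e-06), with a fitted size that depends on the prior count. The sum of the 8 genes was 1.77 to 4.22 CPM in any library, against 2584.4 to 6723.9 CPM for the 10 isotypes above.

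Of 14 genes for gamma, delta and epsilon tubulin and the gamma tubulin ring, which starts new microtubules, 5 rose and 1 fell (edgeR, median log2 change 0.35). Over all genes tested, 12.3% rose and 11.6% fell. TUBG1, the main gamma tubulin, was at 34.7 and 33.4 FPKM in shCON and 99.7 and 64.0 in shMAGED2 (log2 change 1.34, SE 0.24; Benjamini-Hochberg adjusted p = 0.0129). CDK5RAP2, which anchors and activates the ring at centrosomes, rose by 1.04 (SE 0.09; 0.00167). TUBE1, epsilon tubulin of the centriole, went the other way, from 12.5 and 16.9 FPKM to 3.53 and 3.15 (log2 change −1.98, SE 0.17; 0.00158). The other 3 that rose, named after their values were seen, were NEDD1 (0.69), TUBGCP4 (0.67) and TUBGCP2 (0.32). Without shCON replicate 1 or 2 the number that rose was 2, and without shMAGED2 replicate 1 or 2 it was 8 or 7.

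Folding of tubulin needs the CCT chaperonin and then the cofactors TBCA to TBCE. Of the 8 CCT subunit genes 4 rose and 0 fell (edgeR, median log2 change 0.38), against 6 and 0 at an unadjusted p under 0.05 and 4 and 0 by DESeq2. By edgeR 12.3% of all genes tested rose and 11.6% fell. CCT7 rose by 0.54 (SE 0.10; Benjamini-Hochberg adjusted p = 0.0145), CCT2 by 0.47 (SE 0.10; 0.0208), TCP1 by 0.41 (SE 0.10; 0.0353) and, named after its values were seen, CCT3 by 0.41. Without shCON replicate 1 or 2, and on log2(FPKM + 1), 0 of the 8 passed, and without shMAGED2 replicate 1 or 2 the number that rose was 7 or 6, with 0 or 1 (CCT4, named after its values were seen) lower. Scaling by library size alone left 1 that rose and the replicate block 2. Of the folding cofactors, 8 symbols with 9 entries because TBCE is listed at 2 identifiers, 0 passed in either direction by edgeR (median log2 change 0.14), with 1 higher and 1 lower at an unadjusted p under 0.05, and 1, TBCEL, was lower by DESeq2 (0.0253). The 3 with the smallest p were TBCEL (−0.61, Benjamini-Hochberg adjusted p = 0.0576), TBCD (0.35, 0.103) and TBCB (0.20, 0.256), of which TBCD and TBCB act on the tubulin fold itself. TBCEL passed as lower in edgeR with no count filter (0.0326) and with the filter of 5 CPM (0.0446). Without shMAGED2 replicate 1 TBCEL (−0.41, 0.0228) and TBCD (0.49, 1.17e-06) both passed, as they did without shMAGED2 replicate 2 (−0.85, 5.01e-05, and 0.18, 0.0283). Without shCON replicate 1, 1 entry passed as higher, TBCE, named after its values were seen.

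The genes of tubulin mRNA autoregulation serve the control that reads the start of the nascent chain, which the first codons shown above encode. Of 12, 1 rose and 1 fell by edgeR, with a median log2 change of 0.23. These shares lay below those of all genes tested, 12.3% and 11.6%. TTC5, the reader, was at 11.1 and 9.07 CPM in shCON and 6.18 and 11.7 in shMAGED2, and overlapped between the groups. SCAPER, the adaptor, was at 9.43 and 9.24 against 12 and 10.1. Its shMAGED2 libraries both lay above both shCON libraries, as for 33.0% of all genes tested. TTC5 and SCAPER were named after their values were seen and neither passed (log2 changes −0.17 and 0.24). CNOT9, a CCR4-NOT subunit, rose by 0.42 (SE 0.11; Benjamini-Hochberg adjusted p = 0.0389) and CNOT6L, one of its deadenylases, changed by −0.59 (SE 0.14; 0.03). The scaffold CNOT1, at a log2 difference of 0.40, missed the threshold (0.0597). Without shCON replicate 1 or 2 neither call held (CNOT9 0.254 and 0.358, CNOT6L 0.131 and 0.189, edgeR), and without shMAGED2 replicate 1 or 2 the number that rose was 3 or 6, with 1 or 2 lower. Library size alone took CNOT9 to 0.0512, and DESeq2 or no count filter gave 2 that rose.

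Among 20 enzymes that modify tubulin, 18 were tested, 3 rose and 2 fell (edgeR, median log2 change −0.01), shares near those of all genes tested, 12.3% and 11.6%. TTL, which restores the terminal tyrosine of alpha tubulin, rose by 0.48 (SE 0.09; Benjamini-Hochberg adjusted p = 0.0163), the glutamylase TTLL4 by 0.70 (SE 0.13; 0.0151) and TTLL12 by 0.92 (SE 0.15; 0.0111). The 2 that fell, named after their values were seen, were the deacetylase HDAC6 (−0.65) and the glycylase TTLL3 (−0.63). Without shCON replicate 1, 0 rose and 0 fell, and without shCON replicate 2, 1 rose and 0 fell. With shMAGED2 replicate 1 left out the numbers were 4 and 5, and with shMAGED2 replicate 2 left out 6 and 4.

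Of 31 genes that bind, stabilise or sever microtubules, 28 were tested, 8 rose and 2 fell (edgeR, median log2 change 0.15). The shares over all genes tested were 12.3% higher and 11.6% lower. STMN1, the stathmin that sequesters tubulin dimers, rose by 1.42 (SE 0.09; Benjamini-Hochberg adjusted p = 0.000802), from 68.0 and 70.3 FPKM in shCON to 173.2 and 183.7 in shMAGED2, a change within the range of the isotypes themselves. CKAP5, a microtubule polymerase, rose by 0.94 (SE 0.12; 0.00503). DCLK1, a doublecortin-like kinase, fell by 1.00 (SE 0.12; 0.00355), and MAP2 was the other that fell. Without shCON replicate 1 or 2 the number that rose was 2 or 3, with 2 lower each time, and without shMAGED2 replicate 1 or 2 it was 9 or 14, with 7 or 5 lower.

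Markers of proliferating cells moved with the isotypes. All 8 of the list rose (edgeR), with a median log2 change of 1.58: PLK1, a mitotic kinase, by 2.00 (SE 0.13; Benjamini-Hochberg adjusted p = 0.000831), BUB1, a spindle checkpoint kinase, by 1.84 (SE 0.12; 0.000839), and TOP2A, a topoisomerase, by 1.6 (SE 0.09; 0.000774). By the same test 12.3% of all genes tested rose and 11.6% fell. The summed level of the 8 markers was 617.7 to 625.6 CPM in shCON and 1917.1 to 2187.9 CPM in shMAGED2. Their part in the higher tubulin levels was not tested. Among the 8 glial or progenitor markers 4 were tested: NES rose by 1.88 (SE 0.18; 0.002), OLIG2 changed by −1.45 (SE 0.27; 0.0158), and GFAP, at a log2 difference of −1.17, did not pass (0.0784). The OLIG2 call did not hold without shCON replicate 1 (0.0674) or 2 (0.0936). GFAP passed as lower without shMAGED2 replicate 2 (−1.47, 0.0179). Without VIM the other 7 markers summed to 12.7 to 14.6 CPM in shCON and 22.1 to 22.5 CPM in shMAGED2, and without NES as well the remaining 6 summed to 7.94 to 8.89 CPM and 2.79 to 3.74 CPM.

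**Figure D5:**
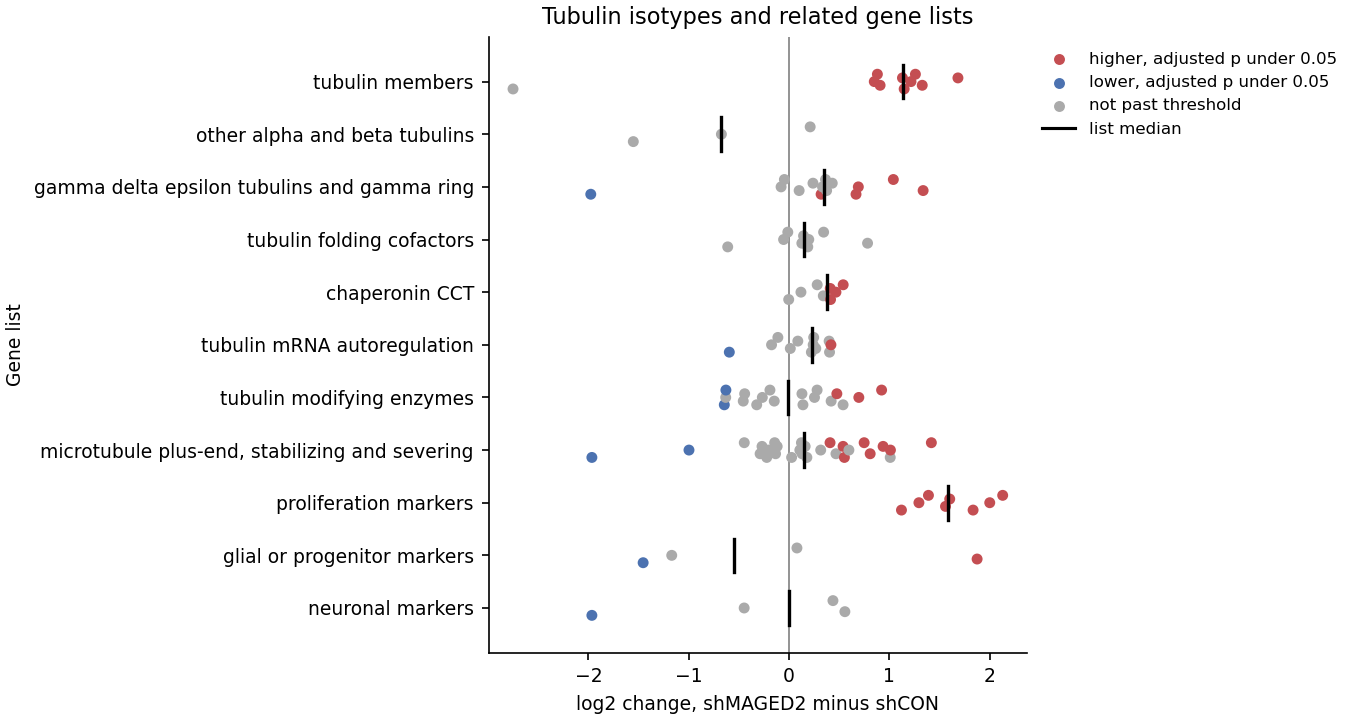
Log2 change (shMAGED2 minus shCON, horizontal axis) of every tested gene in the 10 isotypes and 10 related lists (vertical axis), red for higher and blue for lower at an adjusted p under 0.05, grey for not past it; black bars are list medians. The isotypes, at a median of 1.14, and the proliferation markers, at 1.58, lie to the right of 0 apart from TUBB2B.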

How the data were processed

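The values used are raw counts for each gene, deposited as whole numbers, and FPKM values that the authors computed. HISAT2, StringTie and SAMtools were used on hg38, per the submitters' processing notes. Not given in the sources used here are the annotation, the strand setting, the gene lengths and the treatment of multiply matching reads. Per the labels' protocols, a NEBNext Ultra RNA kit was used.

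The gene counts entered edgeR 4.0.16 under R 4.3.3 (filterByExpr, TMM factors 0.945 to 1.023, robust quasi-likelihood model, group as the only term, two-sided, Benjamini-Hochberg over 15293 genes, threshold 0.05). SEs come from the F statistic. Residual degrees of freedom were 2, and the coefficient of biological variation 0.167. The shCON pair and the shMAGED2 pair each differed beyond counting noise (chi-square divided by its degrees of freedom, 7.35 and 93.89). Gene positions and coding sequences come from GENCODE 29, aligned with Biopython 1.88, and promoters from RefSeq (GRCh38.p14); all 134 list symbols matched.

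Named are all 10 isotypes, MAGED2, ZDHHC15 and up to 3 genes per list with the smallest p. The isotypes and the lists were chosen with earlier results of these data known. Alternatives were DESeq2 1.42.0 and its size factors, library size alone, limma 3.58.1 (limma-trend) on log2(FPKM + 1) and log2(FPKM + 0.1) where 2 libraries reached an FPKM of 1, no count filter, 5 CPM in 2 libraries, no robust estimation, a replicate block, counts for shares, and each library left out. Removing mitochondrially encoded genes was chosen after seeing the data. The coding ends of the other alpha genes are not reported here.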

Additional observations from a re-analysis of the deposited data

How the results depend on the processing

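The number of isotypes called higher was 9 in 12 of 14 alternatives and 8 without shCON replicate 1 or 2, where TUBB missed the threshold. In fits that leave out a library, a group left with 1 library is taken to have the spread of the other group. The number called lower was 0 except under limma-trend on log2(FPKM + 1), where TUBB2B passed (log2 change −1.1, limma adjusted p = 0.0365) and the number was 1, and across the libraries left out, where it was 0 to 1. No isotype changed direction. TUBB2B was not tested under the filter of 5 CPM. Over all genes the number called higher was 1236 under limma-trend on log2(FPKM + 0.1), and leaving out 1 library gave 567 to 3725 higher and 533 to 3722 lower. Deviations of equal replicate numbers did not correlate across genes (−0.018). With 2 libraries per group this value cannot decide whether equal numbers were handled together. With the replicate block 9 isotypes were higher, as were 1706 genes in all, with 1630 lower. MAGED2 stayed called, at −3.03 to −3.31 without 1 library. Shares from counts, which are not per length, put TUBA1C at 26.7% in shCON and 22.5% in shMAGED2, TUBA1B at 55.5% and 64.4%, and TUBB at 52.2% and 47.2%. At these depths a count of 0, as for TUBB2B in shMAGED2 replicate 1, allows up to 0.0963 CPM, taken over the library total without TMM adjustment.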
